A study of Mus musculus with 32 samples.

Results

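Ear1 encodes an eosinophil-associated ribonuclease, and its expression was followed in every group of a study of Pparg in bone marrow-derived macrophages and dendritic cells (DCs). It was selected on its measured values, namely the signal and the signal-to-noise ratio (S/N) of a single probe (685503, transcript NM_007894.2) in all 8 groups. It is therefore 1 of 33012 noncontrol probes of the array, and of the 16620 probes that passed the detection filter. Because these values chose the gene, they are described here with no test.

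Bone marrow cells came from the femur of 8 C57Bl/6 mice and were cultured for 9 days according to the labels (the methods give a longer time for bone marrow cultures). IL-4 at 20 ng/ml was present in all cultures, together with M-CSF at 20 ng/ml for macrophages or GM-CSF at 20 ng/ml for immature DCs (iDCs). Each culture received vehicle (a DMSO and ethanol mixture) or the PPARγ agonist rosiglitazone (RSG) at 1 μM, which makes 4 arrays a mouse and 8 groups with 4 mice in each. Mice 1, 2, 3 and 4 were Pparg+/- LysCre, and mice 5, 6, 7 and 8 were Pparg fl/- LysCre. Both genotypes therefore carry LysCre, a Cre recombinase driven by the lysozyme M locus in myeloid cells, and both carry a Pparg allele without function. The control mice keep the other allele intact, whereas in Pparg fl/- LysCre mice Cre can remove it, as far as Cre acted in each culture. The labels give no age or sex, and the Pparg transcript itself was not analysed here, so the genotype labels were not checked against it.

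Arrays were single-color Applied Biosystems arrays read by chemiluminescence. Taking an S/N of 3 or more as detection, 13595 to 16683 probes were detected per array, and with 4 mice in a group it is their number that sets the precision of the values below. Arrays were scanned on 4 days, each with 2 mice of 1 genotype, so that scan day and genotype cannot be told apart, whereas the RSG and cell type comparisons lie within a mouse and a day. A symbol was found for 324 probes (0.981%). On the gene lists used here, only Ear1, Stat5a and Stat5b had a named probe, so that no other listed gene of the RNase A family and none of the listed PPARγ target genes or genes of alternative activation could be followed. The labelled cell types could therefore not be checked against macrophage or DC markers, and no marker of eosinophils other than Ear1, nor any of mast cells, neutrophils or lymphocytes, could be measured. In bulk RNA, fewer cells that express Ear1 and less Ear1 RNA per cell cannot be told apart.

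The mouse eosinophil-associated ribonucleases are secreted proteins of the RNase A superfamily and are relatives of human eosinophil-derived neurotoxin and eosinophil cationic protein. They were first described in eosinophil granules, and members are also known from macrophages and alveolar macrophages. PPARγ is a nuclear receptor that is bound and activated by fatty acid derivatives and by thiazolidinediones such as RSG. It binds DNA with a retinoid X receptor, usually at a direct repeat of AGGTCA with a spacer of a single base. IL-4 signals through STAT6, which is known to drive alternative activation of macrophages.

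The 250 bases before the annotated start of Ear1 (RefSeq, GRCm38.p6, chr14:43819640-43819889, minus strand) are shown because the paralog Ear2 has an almost identical stretch (chr14:44102404-44102653, plus strand). Capitals mark the bases at which the aligned stretches differ.
Ear1: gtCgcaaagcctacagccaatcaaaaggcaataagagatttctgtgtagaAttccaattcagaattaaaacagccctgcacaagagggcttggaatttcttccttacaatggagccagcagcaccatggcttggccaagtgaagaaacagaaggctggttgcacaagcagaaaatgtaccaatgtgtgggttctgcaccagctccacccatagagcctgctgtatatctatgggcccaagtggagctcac
Ear2: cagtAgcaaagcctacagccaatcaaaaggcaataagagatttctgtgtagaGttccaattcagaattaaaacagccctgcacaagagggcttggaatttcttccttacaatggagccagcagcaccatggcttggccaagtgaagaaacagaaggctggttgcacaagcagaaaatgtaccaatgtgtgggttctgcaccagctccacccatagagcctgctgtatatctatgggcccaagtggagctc
In this alignment 246 of 248 aligned bases were identical, or 99.2%. Identity with Ear1 was 93.5% for Ear10, 91.1% for Rnase2b, 85.1% for Ear6 and 78.9% for Rnase2a, counted over the aligned bases and internal gaps. The window of Ear14 aligned with that of Ear1 over 14 bases only, all of them identical. They are the first bases of the Ear14 window and the last of the Ear1 window. The windows are thus offset, and the bases further upstream of Ear14 were not compared. None of the motifs searched on both strands was found in the 250 bases of Ear1. These were AGGTCA, present in 14.0% of 32851 RefSeq promoters of that length, and AGGTCANAGGTCA, the direct repeat that contains it, present in 0.0335%. The others were the STAT-type palindromes TTCNNNNGAA (5.85% of promoters) and TTCNNNGAA (7.02%), and TATAAA (12.4%). This says only that these letters are not in this window. The probe's own sequence was not used here. The bases compared lie before the start, and the transcripts themselves were not aligned. RNA of a paralog such as Ear2 may share in the signal of the probe, which was not tested, so that the level may not be that of Ear1 alone.

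Ear1 was detected on all 32 arrays, with an S/N from 31.5 to 87.0. The standard deviation that the scanner output gives for the spot was 1.15% to 3.18% of the signal, less than the spread between mice of any group. On no array were more than 9.95% of the probes brighter, and on the array with the highest rank 0.379% were. One array, of vehicle-treated Pparg+/- LysCre macrophages of mouse 3, carried a quality flag (value 64), and its level was the highest of its group. Levels below are log2 signals after quantile normalization over the 32 arrays, in the order of mouse number.

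In Pparg+/- LysCre macrophages the Ear1 level was 17.65, 17.37, 17.66 and 17.47 with vehicle. With RSG it was 19.21, 19.18, 19.53 and 19.23. These mice lay close together, and every RSG level was above every vehicle level and above every other array of the series.

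The macrophages of Pparg fl/- LysCre mice had levels of 17.20, 14.64, 14.59 and 15.24 with vehicle. With RSG it was 17.19, 15.84, 15.08 and 16.58. Mouse 5 stood apart in the vehicle cultures, near the Pparg+/- LysCre range, while the macrophages of mice 6, 7 and 8 were lower in both treatments.

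In Pparg+/- LysCre iDCs the level was 14.72, 15.39, 15.59 and 14.21 with vehicle. With RSG it was 17.49, 17.57, 18.32 and 17.76. The vehicle cultures were among the lowest arrays of the series, and the RSG cultures reached the range of vehicle-treated macrophages of the same genotype.

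The iDCs of Pparg fl/- LysCre mice had levels of 15.10, 14.51, 14.63 and 15.22 with vehicle. With RSG it was 16.82, 17.38, 16.74 and 17.67. Again no vehicle level reached an RSG level, and mouse 5 was not set apart from mice 6, 7 and 8.

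**Figure D1:**
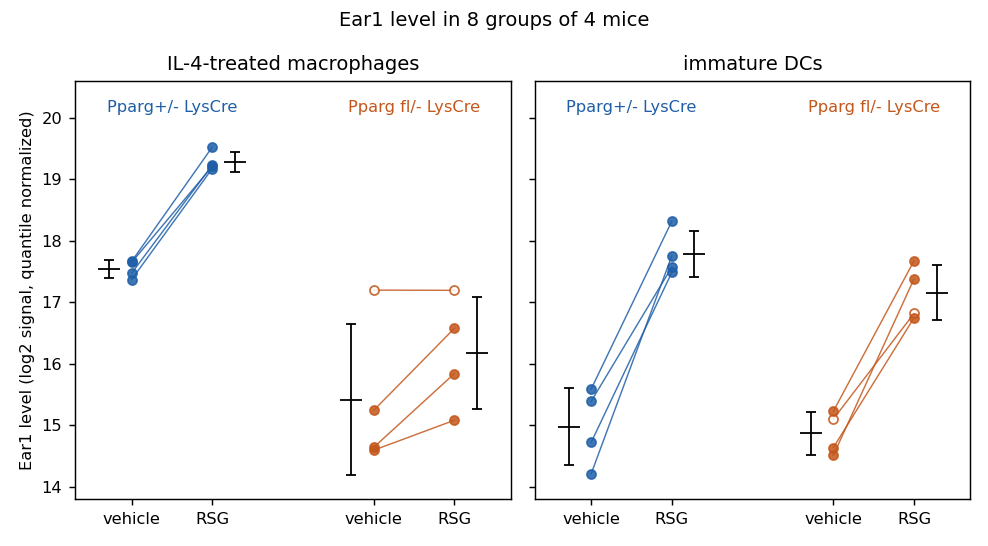
Ear1 level (log2 signal, quantile normalized) on each of the 32 arrays, by cell type, genotype and treatment. Points are arrays, lines join the vehicle and RSG cultures of a mouse, open points are mouse 5, and the bars beside them are the mean ± SD of 4 mice. Every line goes up except that of mouse 5 in Pparg fl/- LysCre macrophages, which is level at 17.20 and 17.19.

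Ordered by mean level (± SD, n = 4), RSG-treated Pparg+/- LysCre macrophages came first at 19.29 ± 0.16. They were followed by RSG-treated Pparg+/- LysCre iDCs at 17.79 ± 0.37 and vehicle-treated Pparg+/- LysCre macrophages at 17.54 ± 0.14. Next came RSG-treated Pparg fl/- LysCre iDCs at 17.15 ± 0.45 and RSG-treated Pparg fl/- LysCre macrophages at 16.17 ± 0.91. The lowest means were those of vehicle-treated Pparg fl/- LysCre macrophages at 15.42 ± 1.22, vehicle-treated Pparg+/- LysCre iDCs at 14.98 ± 0.63 and vehicle-treated Pparg fl/- LysCre iDCs at 14.87 ± 0.35. Only the first of these groups was separated from its neighbour in the order, by 2.83-fold, and each of the other neighbours overlapped. From the lowest to the highest group mean the level differed by 4.42 on the log2 scale, or 21.4-fold. The order of the last groups rests on single mice. Without mouse 5, vehicle-treated Pparg fl/- LysCre macrophages were 0.15 below vehicle-treated Pparg+/- LysCre iDCs.

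With RSG, Ear1 was higher than with vehicle in both cell types of Pparg+/- LysCre mice. In their macrophages the difference was 1.75 ± 0.13 (SD over 4 mice, log2), or 3.36-fold, and the single mice gave 1.56, 1.81, 1.86 and 1.76. The groups did not overlap, which was so in the upward direction for 4.92% of all tested probes. Ear1 was at rank 34 from the highest change. The median change over all tested probes was -0.03.

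In Pparg+/- LysCre iDCs the difference was 2.81 ± 0.56, or 7.01-fold, with 2.77, 2.19, 2.73 and 3.55 in the single mice. Here too the groups did not overlap, against 10.7% of tested probes in that direction, and Ear1 was at rank 38 from the highest. The change was larger in iDCs than in macrophages in each of the 4 mice, by 1.06 ± 0.59, and the changes of the cell types did not overlap (10% of tested probes in that direction). In mouse 2 the gap was 0.38 and in mouse 4 it was 1.79. The RSG-treated iDCs nevertheless stayed below the RSG-treated macrophages, as their vehicle levels had been.

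In Pparg fl/- LysCre iDCs the difference was 2.29 ± 0.49, or 4.88-fold, with 1.72, 2.87, 2.11 and 2.45 in the single mice. The groups did not overlap, which held for 2.44% of tested probes in that direction, and only 7 probes had a higher mean change. In Pparg fl/- LysCre macrophages the difference was 0.76 ± 0.63, or 1.69-fold, and the groups overlapped. The mice gave -0.0033, 1.20, 0.49 and 1.34, so that 3 of 4 were higher with RSG and mouse 5 was level. Without mouse 5 the difference was 1.01 ± 0.46. In these mice as well the change was larger in iDCs than in macrophages, by 1.72, 1.67, 1.62 and 1.11 in the single mice and by 1.53 ± 0.28 on average, with no overlap (4.15% of tested probes in that direction).

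**Figure D2:**
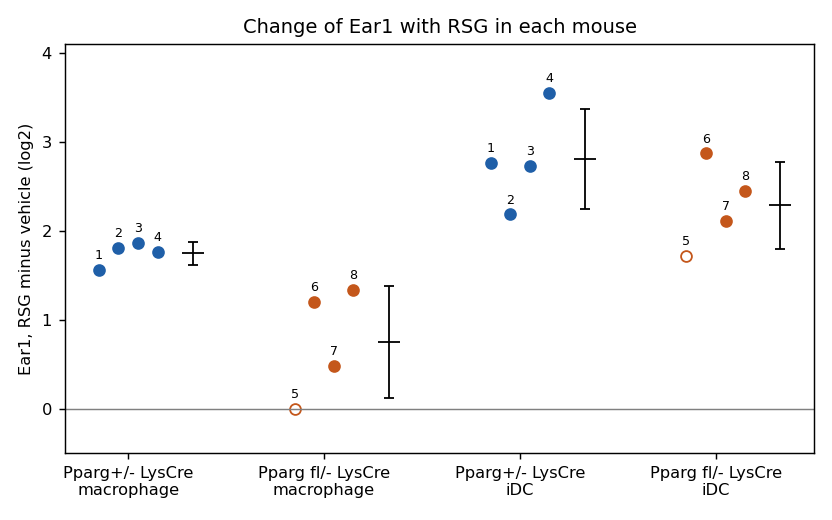
RSG minus vehicle for Ear1 (log2) in each mouse, by genotype and cell type. Points carry the mouse number, the open point is mouse 5, and bars are the mean ± SD of 4 mice. The macrophage changes of Pparg fl/- LysCre mice, from -0.0033 to 1.34, all lie below the 1.56 to 1.86 of Pparg+/- LysCre mice, while the iDC changes of the genotypes overlap.

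Between genotypes, the RSG change in macrophages was smaller in Pparg fl/- LysCre mice, with a difference of -0.99 (SD within genotypes 0.45), and their mice did not overlap, against 2.5% of tested probes in that direction. Without mouse 5 it was -0.74. In iDCs the corresponding difference was -0.52 (SD 0.53), with overlap. Of the probes that were at least 1.5-fold higher with RSG in all 4 Pparg+/- LysCre mice, 431 were found in iDCs (2.59% of those tested) and 146 in macrophages (0.878%), and Ear1 was in both sets. As a description, the median change of the 431 probes was 1.32 in Pparg+/- LysCre iDCs and 0.46 in Pparg fl/- LysCre iDCs, while that of Ear1 was 2.81 and 2.29. Only 6 of these probes had a higher change than Ear1 in the Pparg fl/- LysCre iDCs. For the 146 probes in macrophages the medians were 1.27 and 0.38, beside 1.75 and 0.76 for Ear1, which was at rank 33 of them in Pparg fl/- LysCre cells. These sets were chosen for their change in Pparg+/- LysCre cells, so that a smaller median in the other genotype is partly given by the choice.

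**Figure D3:**
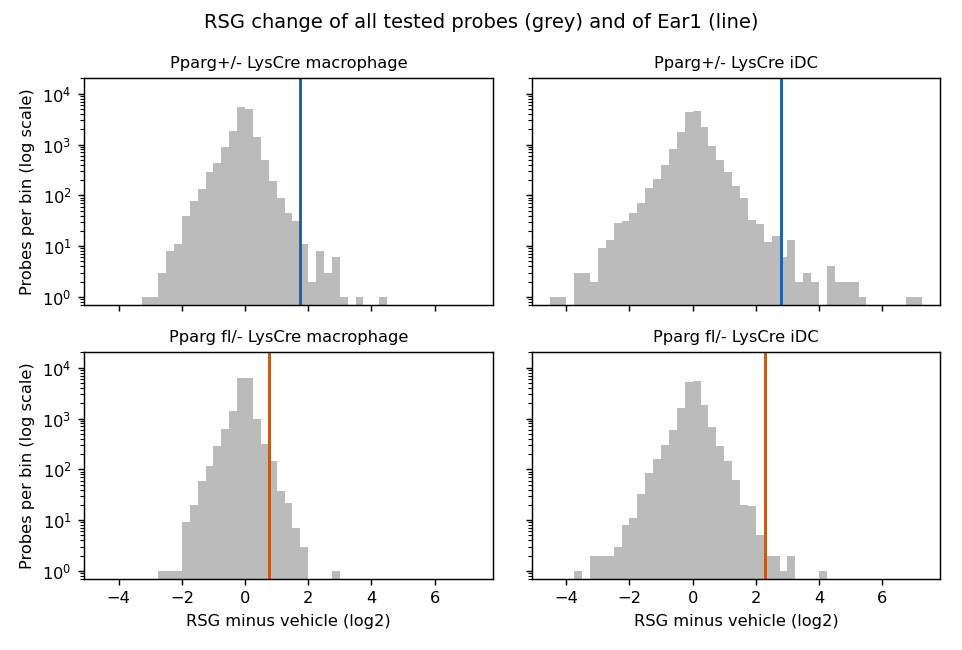
Number of tested probes (log scale) by their mean RSG change (log2, bins of 0.25), for each genotype and cell type, with Ear1 as the vertical line. Ear1 lies in the upper tail in each panel, at 1.75 and 2.81 in Pparg+/- LysCre macrophages and iDCs and at 0.76 and 2.29 in the Pparg fl/- LysCre cells.

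The genotypes were set apart by their Ear1 level in macrophages and overlapped in iDCs. In vehicle-treated macrophages the log2 difference of Pparg fl/- LysCre minus Pparg+/- LysCre mice was -2.12 (SD within genotypes 0.87), so that Pparg+/- LysCre mice were 4.35-fold higher. The groups did not overlap, as for 6.93% of tested probes in that direction, but mouse 5 at 17.20 was just below the lowest Pparg+/- LysCre mouse at 17.37. Without mouse 5 the difference was -2.71, or 6.56-fold. In RSG-treated macrophages the difference was -3.11 (SD 0.66), or 8.66-fold, again without overlap (8% of tested probes in that direction), and only 6 of 16620 probes were lower by more. Without mouse 5 it was -3.45.

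In iDCs the genotypes overlapped under both treatments. The difference, Pparg fl/- LysCre minus Pparg+/- LysCre, was -0.11 (SD 0.51) with vehicle and -0.63 (SD 0.41) with RSG. The small vehicle difference changed sign when mouse 2, 3 or 6 was left out, with 0.09 as its highest value. The RSG difference, 1.55-fold, stayed negative whichever mouse was left out, from -0.81 to -0.45. It was -0.85 when the arrays were scaled to their medians instead.

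The cell types were compared within each genotype. In Pparg+/- LysCre mice Ear1 was lower in iDCs than in macrophages, by 5.90-fold with vehicle and 2.83-fold with RSG. The mice gave log2 differences of -2.93, -1.98, -2.08 and -3.26 with vehicle and -1.72, -1.60, -1.20 and -1.47 with RSG. Neither pair of groups overlapped, against 23.4% of tested probes with vehicle and 21.1% with RSG in that direction. In Pparg fl/- LysCre mice the groups overlapped. With vehicle, iDC minus macrophage was -2.10 in mouse 5 and -0.13, 0.04 and -0.02 in mice 6, 7 and 8. With RSG it was -0.38 in mouse 5 and 1.54, 1.66 and 1.10 in the others, a mean of 0.98 ± 0.94. Without mouse 5 the RSG-treated iDCs were higher by 1.43 ± 0.30 with no overlap (22.7% of tested probes in that direction), and the vehicle-treated cell types differed by -0.04 ± 0.09. The difference between the genotypes in these values was not tested.

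The macrophages of mouse 5 are thus the cultures on which several values turn. With vehicle their level was 2.37 above the mean of mice 6, 7 and 8, or 5.18-fold, and with RSG 1.36 above it. The iDC cultures of the same mouse were 0.31 above that mean with vehicle and differed from it by -0.45 with RSG. Mouse 5 shared its scan day with mouse 6, whose macrophages were at 14.64 and 15.84. How far Cre had removed Pparg in these cultures was not tested.

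A few probes had almost the pattern of Ear1 over the 32 arrays. Across the other 16619 tested probes, Pearson's r with Ear1 had a median of 0.03, with 0.56 as the 95th percentile, and 28 probes had an r above 0.8. The arrays share mice and scan days, so that r is a description. The 2 most similar probes both belong to the gene model mCG118280, to which the tables used here give no symbol, with r of 0.996 and 0.993. Their level minus that of Ear1 stayed between 0.20 and 0.75 for the first of them and between 0.80 and 1.58 for the second on all arrays, which are differences between probes and not between amounts of RNA. Within groups they also moved with Ear1, with r of 0.982 for both over the deviations from the group means. Their RSG changes were 1.65 and 1.45 in Pparg+/- LysCre macrophages and 2.71 and 2.60 in Pparg+/- LysCre iDCs. In Pparg fl/- LysCre cells the changes were 0.82 and 0.89 in macrophages and 2.05 and 2.02 in iDCs. The macrophages of mouse 5 stood apart for them too, with 17.51 for the first probe with vehicle beside 15.22, 15.00 and 15.72 in mice 6, 7 and 8. Whether these probes and that of Ear1 bind the same transcripts was not tested.

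**Figure D4:**
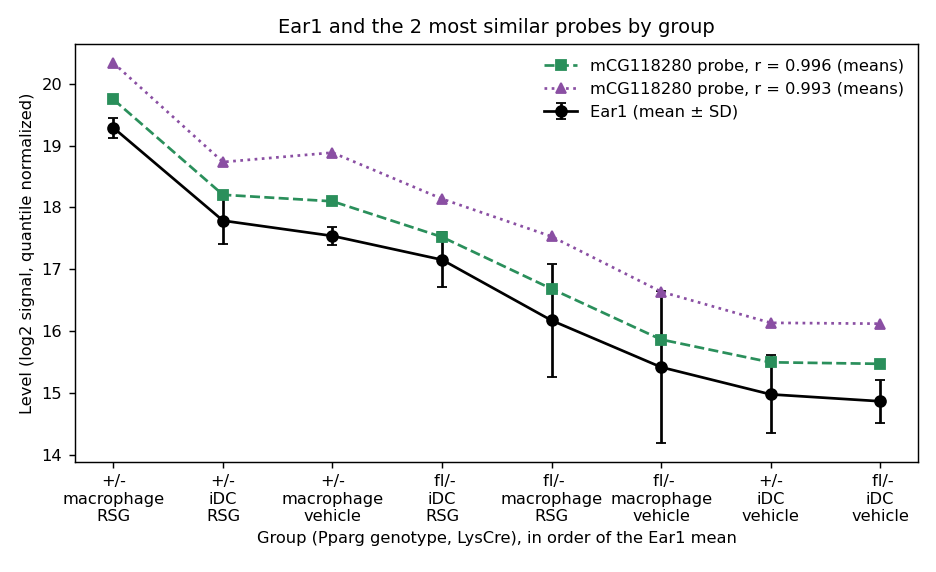
Group means (log2 signal, quantile normalized) of Ear1, with its SD over 4 mice, and of the 2 probes of mCG118280, in the order of the Ear1 mean. The 3 lines run nearly in parallel, with r of 0.996 and 0.993 with Ear1 over the 32 arrays. The height of a line depends on the probe and is not compared.

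The next 3 probes, also without a symbol, had r of 0.903, 0.883 and 0.882. Among the 166 other tested probes with a symbol the closest were much less alike. They come from far fewer probes than all 16619, over which the 95th percentile of r was 0.56. Tnfsf13, the gene of APRIL, a cytokine that sustains B cells and plasma cells, had r = 0.65 (Spearman's rho 0.52) and was only at rank 304 of all probes. Coa3, a factor for the assembly of cytochrome c oxidase, had r = 0.64, and Dhrs7b, a reductase of ether lipid synthesis, had r = 0.64. Snap47, a SNARE protein, had r = 0.58, and so had Acyp2, an acylphosphatase. The RSG change of Tnfsf13 was 0.62 ± 0.24 in Pparg+/- LysCre macrophages and 0.24 ± 0.06 in Pparg+/- LysCre iDCs, while in Pparg fl/- LysCre cells it was 0.19 ± 0.14 and 0.30 ± 0.14. Its level was thus higher with RSG in every mouse, as for Ear1 except the macrophages of mouse 5, with smaller means. For Acyp2 the change was -0.46 ± 0.31 and 0.99 ± 0.39 in Pparg+/- LysCre macrophages and iDCs, and -0.46 ± 0.14 and 0.16 ± 0.56 in those of Pparg fl/- LysCre mice. Snap47 gave -0.14 ± 0.08 and 0.39 ± 0.12, and -0.13 ± 0.14 and -0.01 ± 0.17, in the same order of groups. The mean changes of Coa3 and Dhrs7b lay between -0.07 and 0.29 in the 4 comparisons. The widest spread was that of Coa3 in Pparg fl/- LysCre macrophages, at 0.23 ± 0.57, with single mice from -0.15 to 1.07.

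Of the 27 genes listed for the IL-4, STAT6 and PPARγ pathway, Stat5a and Stat5b had a named probe. They encode the transcription factors that act downstream of GM-CSF and related cytokines, and their values were not used to choose Ear1, although the list that holds them was drawn up with earlier results of these data known. They were tested with limma over all probes (called at a change of 1.5-fold or more with a Benjamini-Hochberg adjusted p below 0.05). This fit did not use the pairing and treated the cultures of a mouse as independent. Stat5a was higher in iDCs than in macrophages in all 4 comparisons of cell types. In vehicle-treated Pparg+/- LysCre cells its level was 13.59 ± 0.08 in iDCs and 12.42 ± 0.10 in macrophages, a difference of 1.17 (SE 0.12, limma adjusted p = 7.67e-09). In vehicle-treated Pparg fl/- LysCre cells the difference was 1.35 (SE 0.12, limma adjusted p = 5.49e-10). With RSG it was 0.77 in Pparg+/- LysCre cells (limma adjusted p = 6.79e-06) and 1.25 in Pparg fl/- LysCre cells (limma adjusted p = 2.83e-09). In these comparisons 28.9%, 27.6%, 28.2% and 24.6% of all tested probes were called in either direction, so that a call is common between these cell types.

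Stat5b was called in none of the 4, with differences of 0.18 to 0.37, of which the 0.24 and 0.37 with RSG had limma adjusted p of 0.0417 and 0.00285 but were under 1.5-fold. Neither gene was called for RSG, where 1.2%, 0%, 6.01% and 0.692% of all tested probes were called in Pparg+/- LysCre macrophages, Pparg fl/- LysCre macrophages, Pparg+/- LysCre iDCs and Pparg fl/- LysCre iDCs. The largest RSG change of the pair was that of Stat5a in Pparg+/- LysCre iDCs, at -0.31 (SE 0.15, limma adjusted p = 0.246). Neither was called between genotypes, where 0.156%, 9.33%, 2.83% and 6.65% of all tested probes were called in vehicle-treated macrophages, RSG-treated macrophages, vehicle-treated iDCs and RSG-treated iDCs. In RSG-treated macrophages Stat5a was at 12.24 ± 0.01 in Pparg fl/- LysCre and 12.51 ± 0.11 in Pparg+/- LysCre mice, a difference of -0.28 (SE 0.08, limma adjusted p = 0.0423) that was under 1.5-fold.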

How the data were processed

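Total RNA of 32 cultures was hybridised as DIG-labeled cRNA to single-color Applied Biosystems arrays. For every probe the authors deposited a signal intensity corrected for background, with its standard deviation, a signal-to-noise score (S/N), an assay-normalized signal and flags. A further table deposited by the authors gives ratios, a signal relative to the array and to the probe's median. The scanner software's settings are not given in the sources used here. The methods' Affymetrix arrays are other arrays.

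Signals were log2 transformed and quantile normalized over the 32 arrays. Probes with an S/N of at least 3 on at least 3 of 4 arrays of at least 1 group were tested (16620). Differences of Ear1 are differences of group means, with the SD over mice, or for genotypes and for differences between genotypes the pooled SD. Group means were fitted with limma 3.58.1 (R 4.3.3) over the 16 arrays of a cell type or, between cell types, all 32. A call needed a change of 1.5-fold or more and an adjusted p (Benjamini-Hochberg) below 0.05. On simulated data with 200 of 16620 probes changed by 1 (log2) it recovered 55% (cell type, vehicle-treated Pparg+/- LysCre) to 61.5% (RSG, Pparg fl/- LysCre iDCs). At most 11 unchanged probes were called in a comparison. The simulated arrays were independent of each other, unlike the real arrays of a mouse, so these rates need not hold for the real data. Python 3.11.15 with numpy 2.4.6, pandas 2.3.3 and Biopython 1.88 made the tables and alignments.

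Replicate numbers are the mouse numbers of the labels, so arrays with the same number are paired. Deviations from group means correlated with a median r of 0.284 (0.00953 to 0.623) within a mouse and cell type and 0.155 within a mouse across cell types. Between mice the medians were -0.0909 within and -0.0460 across cell types. Probes were named through RefSeq (GRCm38.p6, 316 probes) or the supplementary tables (8). Named genes were Ear1, list genes with a named and detected probe, and the 5 tested probes, and the 5 with a symbol, with the highest r with Ear1. Ear1 and the gene lists were chosen with earlier results of these data known. Alternatives were median scaling, the ratios, the assay-normalized signal, an offset at the 10th percentile of signals, other detection filters, the mouse or scan day as a block, the methods' t-test, other measures of likeness and leaving out each mouse.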

Additional observations from a re-analysis of the deposited data

Results flagged for a closer look

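Among 18 sets of 4 values of Ear1 (8 groups of levels and 10 sets of changes within mice), 3 held a value set apart by a larger share of the range than in the other 15 sets. The gaps are given as a share of the range of each set, as a description, and no p-value is drawn from them. The sets share arrays and Ear1 was chosen on these values, so how often such gaps arise by chance was not tested. In RSG-treated Pparg+/- LysCre macrophages mouse 3 was high, at 19.53, with a gap of 0.839 of the range. In vehicle-treated Pparg fl/- LysCre cells the difference of iDC minus macrophage in mouse 5 was low, at -2.10, with a gap of 0.920. Among Pparg fl/- LysCre mice the RSG change in iDCs minus that in macrophages was low in mouse 8, at 1.11, with a gap of 0.836. The level of mouse 5 in vehicle-treated Pparg fl/- LysCre macrophages, 17.20, had a gap of 0.751, below the cutoff.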

How the results depend on the processing

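Of the 64 values that the 16 differences of Ear1 took under median scaling, the deposited ratios, the assay-normalized signal and the offset, 62 moved by less than the SD over mice. The exceptions were both the RSG difference in Pparg+/- LysCre macrophages, 1.75, which became 1.58 with median scaling and 1.58 with the ratios. None of the 88 values without a mouse moved by that SD, but this was fixed in advance. Leaving out 1 mouse of 4 cannot move a difference by the SD over its mice, so this count says nothing about stability. The sign changed in 3 of the 152 values, all for the genotype difference in vehicle-treated iDCs (-0.37 to 0.09). As a linear fold, the genotype difference in vehicle-treated macrophages was the value that moved by over 1.5 times, from 4.35-fold to 6.56-fold without mouse 5 (log2 -2.71 to -1.85 over the mice left out). On the log2 scale small differences moved by more in proportion, such as iDC minus macrophage in vehicle-treated Pparg fl/- LysCre cells, from -0.55 to -0.04 without mouse 5, and the genotype difference of the RSG change in iDCs, from -0.52 to between -0.73 and -0.27.

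The order of the 8 group means was kept under every scaling. Without mouse 2, 3, 5 or 6, 1 of 28 pairs of groups changed order, and without the others 0 (range 0 to 1). Of the 5 most similar probes, 3 remained with Spearman's rho, 2 with r over the 8 group means and 2 with deviations from the group means. Without a mouse 4 to 5 remained. Of the 5 with a symbol, 2, 0 and 1 remained in the same settings, and 3 to 5 without a mouse.

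The number of called list genes (Stat5a between cell types, none otherwise) was the same in 96 of 96 values without a mouse and in 96 of 96 under other settings, and with the mouse as a replicate block it was 1 in each cell type comparison and 0 in the others. Spots of Ear1 were far above background on every array, so dim signal does not limit these values.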
